A study of Homo sapiens with 8 samples.

Results

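The mitotic kinases and cyclins described here are 10 genes, taken by symbol from the 17788 genes of the authors' expression table. They are CDK1 and its cyclins CCNA2, CCNB1 and CCNB2, the CDK1 regulators WEE1 and CDC25B, the kinases AURKA, PLK1 and NEK2, and TPX2, the activator of AURKA. All 10 were listed and all 10 were among the 17217 genes tested. The RNA came from HCT116, an established human colorectal carcinoma line, either wild type (WT) or with STAU1 knocked out by CRISPR (STAU1-KO). The STAU1 product, Staufen1, binds RNA duplexes, and the study set the RNA of mitotic spindles with it against that without it. Total RNA of mitotic cells (input) and of isolated spindles was sequenced for both genotypes, in 2 libraries for each of the 4 groups. In all 4 groups the cells spent 16 h in RO-3306, which blocks CDK1, and then 15 min in 100 µM taxol before mitotic shake-off, so every group carries both drugs. Spindles were pelleted through a glycerol cushion after lysis in detergent. A single clone code marks the STAU1-KO libraries, so the effects of knockout and clone cannot be told apart.

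Entry into mitosis is driven by CDK1 bound to cyclin B, which WEE1 holds inactive by phosphorylation and CDC25 phosphatases switch on. Aurora A, which TPX2 activates and brings to spindle microtubules, PLK1 and NEK2 then act at centrosomes and spindle poles, and cyclin A and cyclin B are destroyed as mitosis proceeds. Most of these genes are transcribed in G2 and early mitosis. Their promoters often carry CCAAT boxes, which bind NF-Y, and a cell cycle homology element such as TTTGAA or TTCGAA, which the MuvB complexes bind.

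The 4 promoter windows printed here show these elements, 3 of genes whose RNA followed a like course over the libraries (CCNB2, NEK2 and CCNB1) and 1 of a gene that departed from it (PLK1). Each runs 5′ to 3′ from 250 bases before to 50 after the start in RefSeq (GRCh38.p14). Capitals mark a CCAAT box or the element TTTGAA. The element TTCGAA was searched too, all on both strands. Other forms of the element were not searched.
CCNB2 (chr15:59104896-59105195, plus strand): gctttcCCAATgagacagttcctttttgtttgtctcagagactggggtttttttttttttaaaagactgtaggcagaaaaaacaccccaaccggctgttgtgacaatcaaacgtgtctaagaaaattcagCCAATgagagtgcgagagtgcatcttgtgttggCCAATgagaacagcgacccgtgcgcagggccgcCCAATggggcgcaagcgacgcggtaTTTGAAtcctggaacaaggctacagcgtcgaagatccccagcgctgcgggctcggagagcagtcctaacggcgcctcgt
NEK2 (chr1:211675572-211675871, minus strand): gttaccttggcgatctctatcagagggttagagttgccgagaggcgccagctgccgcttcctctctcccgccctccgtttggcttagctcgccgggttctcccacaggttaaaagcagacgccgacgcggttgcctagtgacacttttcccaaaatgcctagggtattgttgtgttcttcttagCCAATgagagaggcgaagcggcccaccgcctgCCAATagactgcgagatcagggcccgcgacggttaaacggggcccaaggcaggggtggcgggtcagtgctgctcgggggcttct
CCNB1 (chr5:69166900-69167199, plus strand): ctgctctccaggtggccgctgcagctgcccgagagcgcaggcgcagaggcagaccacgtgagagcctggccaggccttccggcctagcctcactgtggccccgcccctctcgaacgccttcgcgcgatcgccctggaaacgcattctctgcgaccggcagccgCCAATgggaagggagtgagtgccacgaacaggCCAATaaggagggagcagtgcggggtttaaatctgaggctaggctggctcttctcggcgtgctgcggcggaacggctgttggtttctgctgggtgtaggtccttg
PLK1 (chr16:23678639-23678938, plus strand): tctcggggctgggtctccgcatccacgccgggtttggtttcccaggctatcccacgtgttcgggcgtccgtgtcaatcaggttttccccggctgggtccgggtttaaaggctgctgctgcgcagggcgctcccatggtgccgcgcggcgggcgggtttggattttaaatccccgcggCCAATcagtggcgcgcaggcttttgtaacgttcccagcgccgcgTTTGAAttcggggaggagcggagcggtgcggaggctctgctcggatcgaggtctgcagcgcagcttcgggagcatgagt
CCNB2 held 4 CCAAT boxes and a TTTGAA that began 29 bases before the start, and PLK1 held 1 CCAAT box with its TTTGAA at the same distance. CCNB1 and NEK2 each held 2 CCAAT boxes and none of the 6-letter elements in this window. Entries existed for 7 of the 10 genes, with 11 windows in all, and AURKA, TPX2 and WEE1 had none. A CCAAT box on either strand lay in 9 of the 11 windows and in 34.6% of all 35116 promoter windows, and 2 or more lay in 4 of 11 and in 10.8%. TTTGAA on either strand lay in 4 of the 11 windows and in 15.2% of all windows, and TTCGAA lay in 1 and in 1.45%. A gene can have several windows, and a match of letters does not show that a factor binds.

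Depth was 5.21 M to 14.6 M reads on listed genes. Replicates differed most in WT spindles, where the standard deviation of the log2 difference between replicates over tested genes was 0.695, against 0.304 to 0.381 in the other groups. RNA28S5, a gene of 28S ribosomal RNA, took 13.6% of the reads of WT spindle replicate 1 but 46.1% of those of replicate 2. The targeted gene STAU1 stood at 31.9 and 28.5 FPKM in WT input against 4.59 and 4.88 with the knockout. In spindles it stood at 11.5 and 16.2 FPKM in WT and at 9.83 in both knockout libraries. All 6 epithelial markers were listed, with a summed FPKM of 1518 and 1579 in WT input, 324 and 908 in WT spindles, 1157 and 1105 in input with the knockout and 656 and 663 in its spindles. The gap between the WT spindle replicates runs the same way as that of TPX2 and CCNB1 given below, and its part in the results was not tested. Of 12 markers of other cell types only COL1A1, a fibroblast collagen, was listed, at 0.753 to 0.965 FPKM in input and 2.65 to 6.69 in spindles. Its part in the results was not tested. In RNA of a pool of cells or spindles, fewer particles and less RNA per particle cannot be told apart.

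FPKM values are fragments scaled to transcript length and library size, so levels can be set side by side between genes. In WT input, CCNB1 was the most abundant of the 10 mRNAs at 239 ± 11.9 FPKM (SD, n = 2), then TPX2 at 117 ± 2.62. AURKA at 76.6 ± 6.16, CCNB2 at 71.2 ± 6.32 and CCNA2 at 69.7 ± 4.01 FPKM overlapped between libraries. AURKA was above the other two within each WT input library, while CCNB2 and CCNA2 changed places. PLK1 followed at 35.1 ± 2.80 FPKM, and CDC25B (26.4 ± 3.95), NEK2 (25.6 ± 2.07) and CDK1 (25.03 ± 0.0308) again overlapped. WEE1 was lowest at 6.91 ± 0.402 FPKM in WT input. In WT spindles the SD of CCNB1 was 64.9 around a mean of 78.3 FPKM and that of TPX2 51.3 around 61.7. Both were lower in replicate 1, and CCNB1 was above TPX2 in each library. CDC25B, at 47.2 ± 1.122 FPKM, was the most abundant of the 10 in WT spindle replicate 1 (46.4 against 32.4 for CCNB1) and came after CCNB1 and TPX2 in replicate 2. NEK2 was lowest in the spindle group means of both genotypes, at 4.196 ± 2.28 and 9.47 ± 0.314 FPKM. Summed over the 10 genes, FPKM was 721 and 665 in WT input and 166 and 385 in WT spindles. For STAU1-KO the sums were 756 and 754 in input, with 426 and 408 in spindles. As a share of the FPKM of coding genes these sums were 0.172% and 0.284% in WT spindles, with 0.298% to 0.353% elsewhere.

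**Figure D1:**
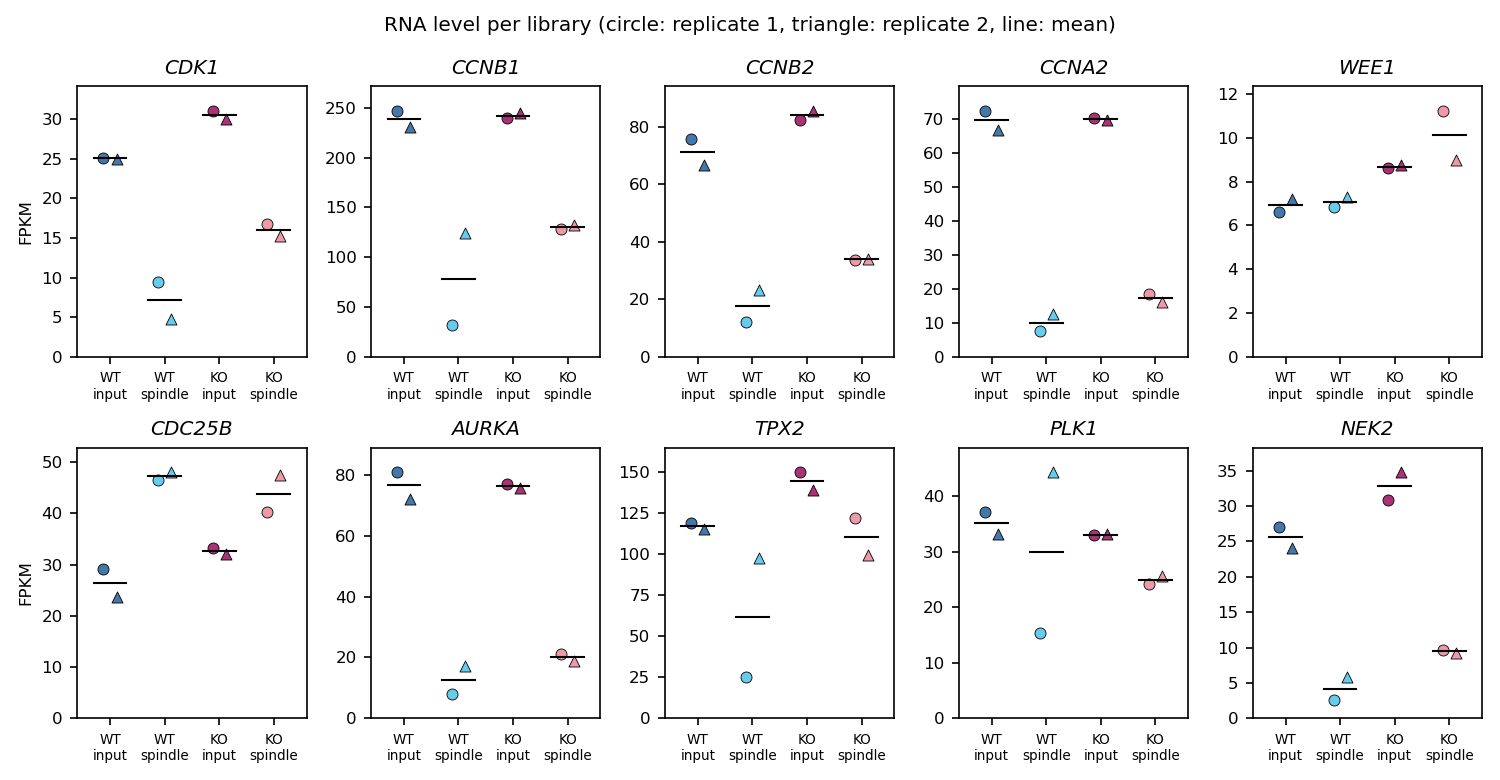
FPKM of each of the 10 mRNAs (vertical axis, from 0, its own scale in each panel) in the 8 libraries, with circles for replicate 1, triangles for replicate 2 and a line at the group mean. Input replicates lie close together in both genotypes, whereas WT spindle replicates of TPX2, CCNB1 and PLK1 lie apart (for CCNB1, 32.4 and 124).

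CCNA2 and CCNB2 fell from input to spindle in both genotypes, and CCNB1 in WT. CCNA2, which encodes cyclin A2, the partner of CDK2 in S phase and of CDK1 at mitotic entry, stood at 72.5 and 66.8 FPKM in WT input and at 7.47 and 12.5 in WT spindles. In STAU1-KO cells the CCNA2 values were 70.3 and 69.8 in input and 18.4 and 16.2 in spindles, so that the groups did not overlap in either genotype. On the log2 scale CCNA2 fell by 2.72 in WT (SE 0.22, limma adjusted p = 0.000187) and by 1.96 in STAU1-KO cells (SE 0.22, limma adjusted p = 0.000976), and both calls held in all 19 alternatives. CCNB2, which encodes cyclin B2, stood at 75.7 and 66.7 FPKM in WT input, and 12.2 and 23.2 in WT spindles. The STAU1-KO values of CCNB2 were 82.4 and 85.7 in input, with 33.8 and 34.1 in spindles. It fell by 2.01 in WT (SE 0.27, limma adjusted p = 0.00123) and by 1.28 in STAU1-KO cells (SE 0.27, limma adjusted p = 0.00976). The second call was lost when any 1 STAU1-KO library was left out (limma adjusted p from 0.0515 to 0.0570, with changes of -1.31 to -1.25).

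CCNB1, which encodes cyclin B1, the main partner of CDK1 in mitosis, stood at 247 and 230 FPKM in WT input and at 32.4 and 124 in WT spindles. Both spindle values lay below both input values, and replicate 2 was 3.84 times replicate 1. CCNB1 fell by 1.89 in WT (SE 0.56, limma adjusted p = 0.0261), with a change of -2.84 without WT spindle replicate 2 and of -0.94 without replicate 1. That call held in 13 of 19 alternatives, with adjusted p of up to 0.105 in limma for the 2 groups alone. In STAU1-KO cells CCNB1 stood at 240 and 244 FPKM in input and 129 and 132 in spindles, which also did not overlap. The change of -0.89 did not pass the test in the model of all 4 groups (SE 0.56, limma adjusted p = 0.229). Fitted on the STAU1-KO libraries alone, the same change had a limma adjusted p of 0.000413. CCNB1 was called in 4 of the 19 alternatives, over which the limma adjusted p ran from 0.000159 to 0.727.

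CDK1, the kinase itself, went from 25.06 and 25.01 FPKM in WT input to 9.49 and 4.80 in WT spindles, and from 31.1 and 30.0 to 16.7 and 15.2 in STAU1-KO cells. Spindle values lay below input values in both genotypes. CDK1 fell by 1.74 in WT (SE 0.26, limma adjusted p = 0.00184) and by 0.90 in STAU1-KO cells (SE 0.26, limma adjusted p = 0.0299). The WT call was lost with libraries set to equal coding sums (-0.81, limma adjusted p = 0.102, the highest of 19 alternatives). The STAU1-KO call held in 11 of 19 alternatives and was lost under both other scalings (-0.22 and -0.51) and without any 1 input library or any 1 STAU1-KO spindle library. With a library left out the change itself stayed between -0.96 and -0.83. The highest limma adjusted p of the 19 was 0.655. In WT spindle replicate 2 only 81 reads stood behind the CDK1 value, and 261 in replicate 1.

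CDC25B rose in WT spindles, and WEE1 did not pass the test in either genotype. CDC25B, a phosphatase that removes the inhibitory phosphate from CDK1, stood at 29.2 and 23.6 FPKM in WT input and at 46.4 and 48.0 in WT spindles. It was the only 1 of the 10 called higher in WT spindles, with a log2 rise of 0.82 (SE 0.14, limma adjusted p = 0.00354), and the call held in all 19 alternatives. In STAU1-KO cells CDC25B stood at 33.1 and 32.0 FPKM in input and 40.2 and 47.4 in spindles, without overlap. The change of 0.41 missed the threshold (SE 0.14, limma adjusted p = 0.0547), and 6 of 19 alternatives called it, over a range of 0.00292 to 0.254.

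WEE1, the kinase that holds CDK1 inactive, stood at 6.63 and 7.19 FPKM in WT input and 6.83 and 7.31 in WT spindles, which overlapped. In STAU1-KO cells it stood at 8.61 and 8.76 in input and, without overlap, at 11.2 and 8.99 in spindles. The changes of 0.03 (95% interval -0.26 to 0.32, limma adjusted p = 0.846) and 0.19 (-0.10 to 0.48, limma adjusted p = 0.230) did not pass. With equal coding sums they were 0.91 and 0.83 and passed (limma adjusted p = 0.00358 and 0.00788, the lowest over the alternatives, which ran up to 0.934 and 0.794).

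AURKA, the Aurora A kinase, fell in both genotypes. It stood at 80.9 and 72.2 FPKM in WT input and at 7.86 and 17.1 in WT spindles, and with the knockout at 77.1 and 75.8 in input and 21.3 and 18.9 in spindles. All spindle values lay below all input values. AURKA fell by 2.61 in WT (SE 0.31, limma adjusted p = 0.000759) and by 1.88 in STAU1-KO cells (SE 0.31, limma adjusted p = 0.00405), and both calls held in all 19 alternatives. Its pseudogene AURKAPS1 was listed with 3 to 21 reads per library, against 162 to 3335 for AURKA, and reads shared by the pair were not resolved.

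TPX2 stood at 119 and 116 FPKM in WT input and at 25.5 and 98.0 in WT spindles. In STAU1-KO cells it stood at 150 and 139 in input and 122 and 99.5 in spindles. Spindle values lay below input values in both genotypes, but WT spindle replicate 2 was 3.85 times replicate 1. The change of -1.21 in WT did not pass (95% interval -2.57 to 0.15, limma adjusted p = 0.105). It was -2.16 without WT spindle replicate 2, which passed, and -0.26 without replicate 1 (limma adjusted p = 0.000103 and 0.136, with all 19 alternatives between 0.000103 and 0.650). In STAU1-KO cells the change was -0.39 (-1.74 to 0.97, limma adjusted p = 0.591), and it passed in 3 alternatives, those without a WT spindle library and with the STAU1-KO groups alone (limma adjusted p = 0.0454 for the last, with a range of 0.0238 to 0.990 over all 19).

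NEK2, a kinase that splits centrosomes at mitotic entry, stood at 27.1 and 24.1 FPKM in WT input and at 2.58 and 5.81 in WT spindles, which rest on 55 and 76 reads. In STAU1-KO cells it stood at 30.9 and 34.8 in input and 9.69 and 9.24 in spindles. NEK2 fell by 2.43 in WT (SE 0.28, limma adjusted p = 0.000691) and by 1.69 in STAU1-KO cells (SE 0.28, limma adjusted p = 0.00413), and both calls held in all 19 alternatives. PLK1, which acts at centrosomes, kinetochores and the midzone, stood at 37.1 and 33.1 FPKM in WT input and at 15.4 and 44.3 in WT spindles, so that 1 spindle library lay below and 1 above both input libraries. The PLK1 change of -0.40 (95% interval -1.44 to 0.63, limma adjusted p = 0.441) was -1.14 without WT spindle replicate 2 and 0.33 without replicate 1. Each of these passed (limma adjusted p = 0.000202 and 0.0188, over alternatives that ran up to 0.693), in opposite directions. In STAU1-KO cells PLK1 stood at 32.9 and 33.2 FPKM in input and 24.2 and 25.7 in spindles, with a change of -0.39 that did not pass (limma adjusted p = 0.476) and passed in 4 of 19 alternatives (lowest adjusted p = 0.00318, highest 0.995).

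**Figure D2:**
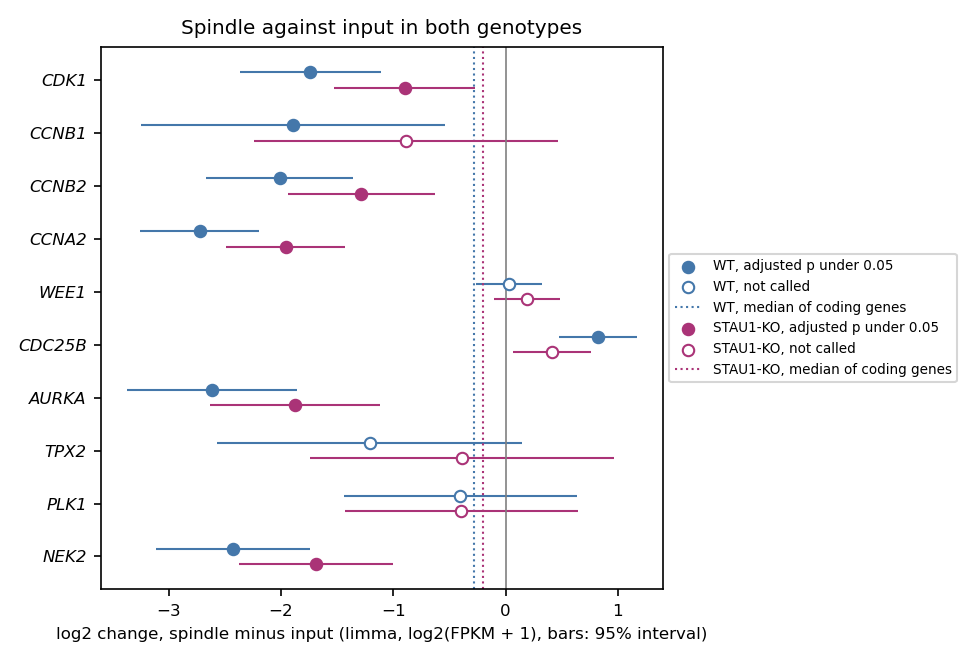
Log2 change from input to spindle (horizontal axis) with its 95% interval for each mRNA in WT (blue) and STAU1-KO (purple) cells, from limma. Filled points passed an adjusted p of 0.05, and dotted lines mark the median of coding genes. CCNA2, AURKA and NEK2 have the most negative changes in both genotypes, and CDC25B is positive in both (0.82 and 0.41).

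In WT cells, 6 of the 10 mRNAs were called lower in spindles (CCNA2, AURKA, NEK2, CCNB2, CCNB1 and CDK1) and 1 higher (CDC25B), where 32.7% of all tested genes were called lower, 27.6% higher and 60.3% either way. Among coding genes alone 43.6% were called lower. With a filter of FPKM of at least 5 in at least 2 libraries, 4689 of 9366 genes were called lower and 2165 higher. The median of these genes was -0.44, and the 10 again gave 6 lower and 1 higher. The median change of the 10 was -1.81, against 0 for all tested genes and -0.28 for coding genes. Both spindle libraries lay below both input libraries for 7 of the 10 and above for 1, against 40% and 37.4% of all tested genes (77.4% either way). In STAU1-KO cells 5 of 10 were called lower (CCNA2, AURKA, NEK2, CCNB2 and CDK1) and 0 higher, where 27.1% of all genes were lower, 22.1% higher and 49.2% either way, and 36.1% of coding genes lower. The median of the 10 was -0.89, against -0.02 for all genes and -0.20 for coding genes, and 8 of the 10 lay below without overlap and 2 above, against 44% and 40.2% (84.2% either way). With the filter of FPKM of at least 5, 3954 of 9366 genes were called lower in STAU1-KO cells and 2016 higher. Their median was -0.30, and the 10 again gave 5 lower and 0 higher.

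Directions hold relative to the authors' scaling. With libraries set to equal coding sums, the median of all tested genes rose from 0 to 0.74 in WT and from -0.02 to 0.50 in STAU1-KO cells, and 4 members were called lower and 2 higher in each genotype. The backgrounds were then 12.6% lower and 51.8% higher in WT and 10.4% and 39.6% in STAU1-KO cells. With equal upper quartiles the medians were 0.43 and 0.27. The calls were then 6 lower and 2 higher in WT and 4 and 2 in STAU1-KO cells. Of all 17217 tested genes 3444 were then called lower and 7340 higher in WT, and 2945 and 5564 in STAU1-KO cells. Under these scalings the PLK1 change became 0.56 and 0.17 in WT, and with equal coding sums PLK1 and TPX2 became 0.29 and 0.31 in STAU1-KO cells. Relative to the median of all genes, 8 of the 10 lay below it in both genotypes under all 3 scalings. WEE1 and CDC25B lay above it. A scaling shifts all genes of a library nearly alike, so these sides could hardly change. In WT the count below the median was 7 without WT spindle replicate 1 and 9 without replicate 2.

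In whole mitotic cells none of the 10 mRNAs was called between STAU1-KO and WT, with 0 called in limma and 0 at an unadjusted p under 0.05. The background was 0.192% of tested genes called, 0.0813% higher and 0.11% lower. An unadjusted limma p under 0.05 was met by 1522 of all 17217 tested genes. Changes ranged from -0.08 for PLK1 to 0.35 for NEK2, with a median of 0.26 against 0 for all tested genes. For 6 of the 10 both STAU1-KO input libraries lay above both WT input libraries, against 26.4% of all genes, and for none below (27.8%, and 54.2% either way). WEE1, at 8.61 and 8.76 against 6.63 and 7.19 FPKM, had the lowest p (change 0.29, 95% interval -0.000116 to 0.59, limma unadjusted p = 0.0501, adjusted p = 0.566). The interval for AURKA ran from -0.76 to 0.76 and that for CCNB1 from -1.33 to 1.37, with a spread that the model shares with WT spindles. Without WT spindle replicate 1 the SE went from 0.31 to 0.081 for AURKA and from 0.56 to 0.056 for CCNB1, and neither was called. No alternative called a member in this comparison.

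Replicates of these mRNAs lay farthest apart in WT spindles. In WT input, STAU1-KO input and STAU1-KO spindles, replicate 2 over replicate 1 lay between 0.800 (WEE1, STAU1-KO spindles) and 1.18 (CDC25B, STAU1-KO spindles). In WT spindles it was 3.85 for TPX2 (95% counting interval 3.51 to 4.23), 3.84 for CCNB1 (3.48 to 4.23) and 2.88 for PLK1 (2.58 to 3.21). On the log2(FPKM + 1) scale the replicate differences of TPX2 and CCNB1 were larger than those of 99.8% of tested coding genes, and that of PLK1 than those of 99.1%. NEK2 at 2.25, AURKA at 2.17, CCNB2 at 1.90 and CCNA2 at 1.67 were also higher in replicate 2, whereas WEE1 (1.07) and CDC25B (1.03) had intervals that included 1. CDK1 went the other way, at 0.505 (0.389 to 0.651), at the 0.694 percentile of coding genes. The coding median of this replicate difference was 0.10. Intervals cover counting error only, since reads are not independent molecules. RNA28S5 moved between the same libraries, as given above, and its part was not tested.

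**Figure D3:**
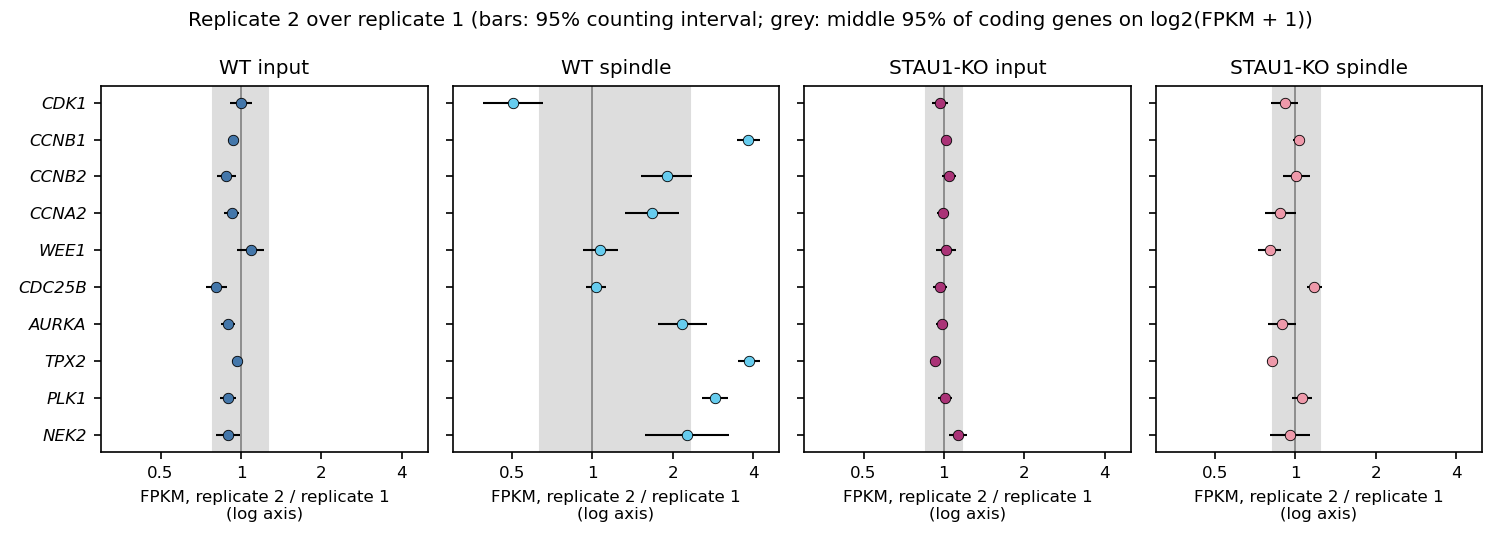
FPKM of replicate 2 divided by that of replicate 1 (horizontal log axis) for each mRNA in the 4 groups, with 95% counting intervals from recovered reads and a grey band for the middle 95% of tested coding genes, computed on log2(FPKM + 1). In WT spindles TPX2, CCNB1 and PLK1 lie right of the band and CDK1 (0.505) left of it.

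On the authors' scaling, STAU1-KO spindles held more of some of these mRNAs than WT spindles, and which were called depended on the scaling. CDK1 was higher by 1.12 (SE 0.26, limma adjusted p = 0.0360; 16.7 and 15.2 against 9.49 and 4.80 FPKM) and NEK2 by 1.08 (SE 0.28, limma adjusted p = 0.0497; 9.69 and 9.24 against 2.58 and 5.81 FPKM). These were the 2 of 10 called, both higher, where 10.6% of all tested genes were called higher, 5.52% lower and 16.1% either way, and 14.5% of coding genes higher. Both STAU1-KO spindle libraries lay above both WT spindle libraries for 8 of the 10 and below for 0, against 31.8% and 25.5% of all genes (57.2% either way). The 2 that overlapped were PLK1 and CDC25B. CCNB2 (0.97), CCNA2 (0.78) and WEE1 (0.46) had an unadjusted p under 0.05 and limma adjusted p of 0.0590, 0.0603 and 0.0519. In all, 5 of the 10 and 5947 of all 17217 tested genes had an unadjusted limma p under 0.05. The median difference of the 10 was 0.87, against 0.04 for all genes and 0.09 for coding genes.

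These counts rest on which WT spindle library is used. Without replicate 1, 4 members were called higher (CDK1, NEK2, CCNB2 and CCNA2) and PLK1 lower by 0.81, with a median of 0.32 and a background of 21.4% higher and 16.9% lower. Without replicate 2, 9 were called higher, every member except CDC25B, with a median of 1.18 and a background of 22.8% higher and 10.9% lower. A single WT spindle library is then assumed to vary like the other groups. Leaving out any 1 of the other 6 libraries left 0 calls, and so did fitting the spindle groups alone, where no gene of the 17217 was called, and library weights. CDK1 passed in 9 of 19 alternatives (limma adjusted p from 0.00116 to 0.202) and NEK2 in 7 (0.000798 to 0.221). The CDK1 difference stayed positive, between 0.69 and 1.55, and that of NEK2 between 0.62 and 1.55. With equal coding sums and upper quartiles the CDK1 call was lost (0.96 and 0.99, limma adjusted p = 0.138 and 0.0805). NEK2, CCNB2 and CCNA2 were the members called under both. For TPX2 the difference was 1.12 with all libraries, 0.17 without replicate 1 and 2.07 without replicate 2, and for CCNB1 it was 1.02, 0.07 and 1.98.

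**Figure D4:**
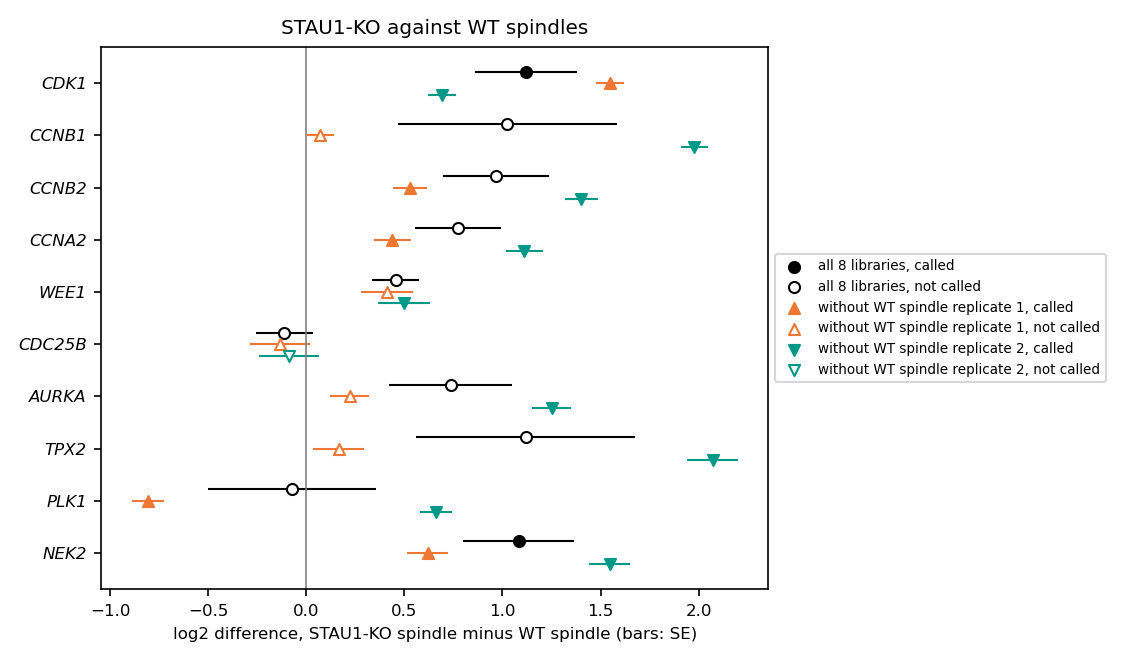
Log2 difference of STAU1-KO minus WT spindles (horizontal axis, bars SE) for each mRNA, with all 8 libraries (black), without WT spindle replicate 1 (orange) and without replicate 2 (green). Filled symbols passed an adjusted p of 0.05 in limma. PLK1 changes side, from -0.81 to 0.66, and TPX2 and CCNB1 move most, while CDC25B and WEE1 move least.

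The change from input to spindle, taken as STAU1-KO minus WT, was called as different in limma for 0 of the 10. The background was 0.0929% of tested genes (0.0755% higher and 0.0174% lower). The unadjusted limma p was under 0.05 for 1 of the 10 (CCNA2) and for 3485 of all 17217 tested genes. The CCNA2 change was less negative in STAU1-KO cells by 0.77 (95% interval 0.01 to 1.52, limma adjusted p = 0.242). The median of the 10 differences was 0.74, against 0.02 for all genes. CDK1 had 0.84 (-0.04 to 1.73), CCNB1 1.00 (-0.91 to 2.91) and CDC25B -0.41 (-0.90 to 0.08). Without WT spindle replicate 1 this count was 2, CDK1 higher (1.27) and PLK1 lower (-0.72), against 13% and 9.41% of all genes. Without replicate 2 it was 8, all higher, against 17.6% higher and 5.24% lower, with WEE1 and CDC25B not called. No other alternative called any member.

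The members called lower in WT spindles had shorter coding sequences than the rest, which is a split made after the changes were seen and carries no test. The longest coding sequence listed by the authors ran from 894 nucleotides (CDK1) to 1338 (NEK2) in those 6, and from 1743 (CDC25B) to 2352 (TPX2) in the other 4. Their longest transcripts were 1556 to 2797 and 3594 to 5187 nucleotides. Of 5 features computed (transcript, coding, 3′ and 5′ untranslated length and GC content), coding length had the highest rank correlation with the WT change, with rho = 0.60 over the 10 genes, 0.57 over 65 other regulators and 0.50 over 11671 coding genes. In STAU1-KO cells these were 0.67, 0.65 and 0.53. Genes are not independent, and the points share libraries. Of tested coding genes with 894 to 1338 coding nucleotides 53.8% were called lower in WT, with a median of -0.52, and of those with 1743 to 2352, 32.2%, with a median of -0.08. Of the 18 other regulators in the shorter range 16 were called lower in WT and 0 higher, with a median of -1.12. Of the 10 in the longer range 5 were lower and 2 higher, with a median of -0.62. CCNA2 (-2.72), AURKA (-2.61) and NEK2 (-2.43) lay below the median of coding genes of their length, as did that of these regulators. TPX2 (-1.21, not called), with the longest coding sequence of the 10, also lay below that of its length. Its change was -0.26 without WT spindle replicate 1.

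**Figure D5:**
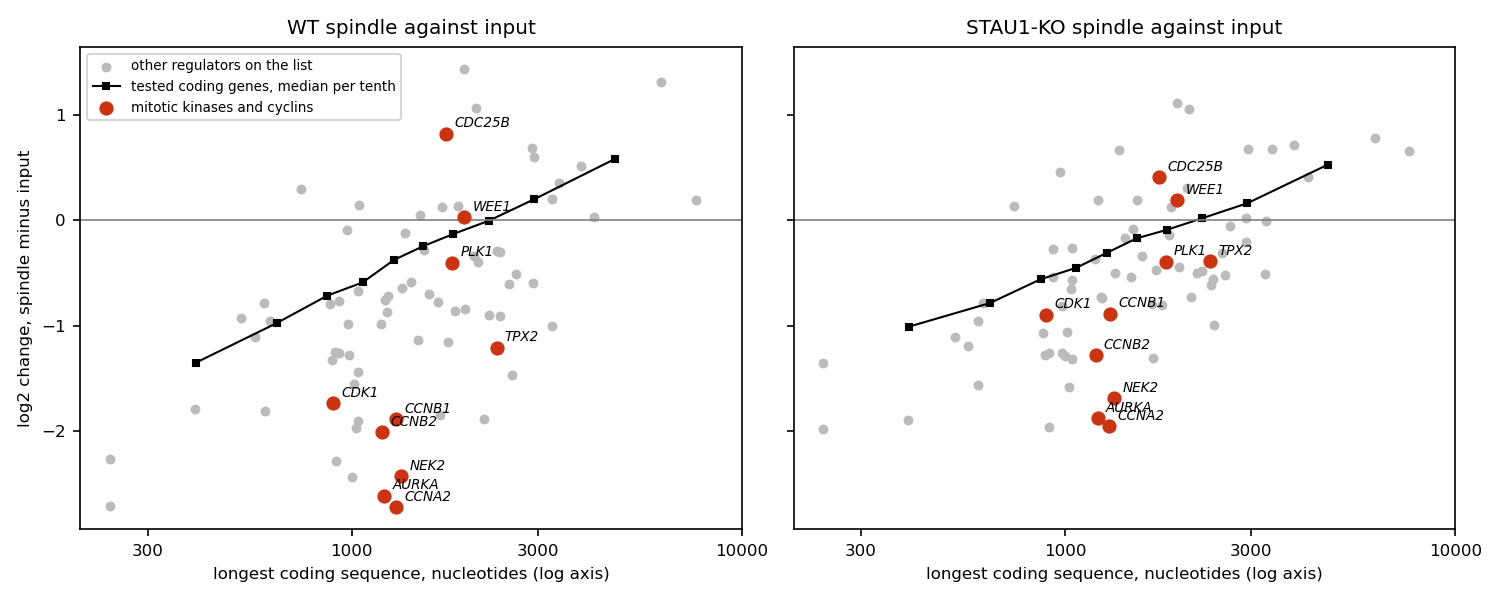
Log2 change from input to spindle (vertical axis) against longest coding sequence (horizontal log axis, nucleotides) in WT (left) and STAU1-KO cells (right), for the 10 mRNAs (red), 65 other regulators (grey) and the median of tested coding genes in 10 classes by length (black line). The black line rises from -1.35 to 0.58 in WT, and the 6 shorter members lie below it.

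Over the 8 libraries the members did not all follow 1 course. The correlation of a member's log2(FPKM + 1) with the mean of the other 9 was 0.996 for CCNB2, 0.989 for NEK2, 0.965 for AURKA, 0.955 for CCNB1 and 0.949 for CCNA2. It was 0.843 for TPX2, 0.783 for CDK1, 0.609 for PLK1, 0.108 for WEE1 and -0.80 for CDC25B. These values describe 4 groups of 2 libraries, mostly the split of input from spindle. The 5 other coding genes closest to the members' mean course were KIF5B, a kinesin heavy chain (r = 0.998), GSKIP (0.998), SLC25A20, a mitochondrial carnitine carrier (0.998), CST6, a cystatin (0.997), and MICB (0.996). KIF5B, for example, stood at 87.5 and 82.0 FPKM in WT input, 13.8 and 31.0 in WT spindles, and with the knockout at 101.3 and 100.7 in input and 44.2 and 36.1 in spindles.

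Other regulators of mitotic entry and exit were read from a list of 68 genes, 65 of which were tested. In WT spindles 42 were called lower and 6 higher, with a median of -0.78, and in STAU1-KO spindles 36 and 7, with a median of -0.51. Of all tested genes 32.7% were called lower and 27.6% higher in WT (43.6% of coding genes lower), and 27.1% and 22.1% in STAU1-KO cells (36.1% of coding genes lower). With the filter of FPKM of at least 5, 38 of 55 were lower and 5 higher in WT, and 35 and 6 in STAU1-KO cells. Of all 9366 genes under that filter 4689 were lower and 2165 higher in WT, and 3954 and 2016 in STAU1-KO cells. These counts hold for the authors' scaling. With equal coding sums 12 were lower and 21 higher in WT, with a median of 0.11 against 0.74 for all genes. In STAU1-KO cells 12 and 17 were, with a median of 0.14 against 0.50. Of all tested genes 12.6% were then lower and 51.8% higher in WT, and 10.4% and 39.6% in STAU1-KO cells. With equal upper quartiles 25 of the 65 were lower and 14 higher in WT, and 20 and 13 in STAU1-KO cells. Of all 17217 genes 3444 were then lower and 7340 higher in WT, and 2945 and 5564 in STAU1-KO cells. Leaving out 1 STAU1-KO library lowered the 36, as it lowered such calls over all genes, and the median ran from -0.57 to -0.45. Of 8 tested CDK1 partners and their kinases 5 fell in each genotype. They included CKS1B, a CDK subunit (mean FPKM 22.6 to 3.95 in WT and 27.5 to 6.24 in STAU1-KO cells), and CDK2 (24.6 to 8.41 and 23.9 to 8.98). All 9 tested genes for G1 and S cyclins, their CDKs and CDK inhibitors fell in WT, 8 of them in STAU1-KO cells, among them CDK4 (54.2 to 10.3 and 49.5 to 11.9). Of 11 mitotic exit phosphatase genes 8 fell in each genotype, with ARPP19 and ENSA, which inhibit PP2A when phosphorylated, at 28.8 to 7.62 and 21.4 to 9.43 in WT. PPP2R2A, a regulatory subunit of PP2A, rose from input to spindle in STAU1-KO cells, by 0.67 (limma adjusted p = 0.00518).

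Among 4 other CDK1 inhibitory kinases, CDC25 phosphatases and their regulators, 2 fell in each genotype and none rose. CDC25A (-0.70, limma adjusted p = 0.0211) and CHEK1, the checkpoint kinase that restrains CDC25 (-1.14, limma adjusted p = 0.000635), fell in WT, where CDC25B rose. In STAU1-KO cells CHEK1 (-0.54) and PKMYT1, a relative of WEE1 (-0.47), fell. Within the Polo family, BORA, the activator of Aurora A towards PLK1, fell from a mean of 26.4 to 6.63 FPKM in WT and from 31.3 to 11.98 in STAU1-KO cells, whereas PLK3, a stress-responsive relative, rose from 14.2 to 40.3 and from 13.1 to 29.4. In the NEK family NEK7 fell (6.18 to 2.04 FPKM in WT) and NEK8 rose (0.761 to 2.72), with 3 of 7 higher and 2 lower in each genotype. Of the 6 G2 and M transcription factors 4 fell in WT and 3 in STAU1-KO cells, with FOXM1 at 17.0 to 8.57 and 17.8 to 8.44. None of the 65 was called by limma between the input groups, where 6 had an unadjusted p under 0.05, and 3 were called with library weights or without either WT spindle library. Of all 17217 tested genes, 1522 had an unadjusted limma p under 0.05 between inputs. Between spindles 18 of the 65 were higher and 2 lower in STAU1-KO cells. Of all tested genes 10.6% were higher and 5.52% lower (14.5% of coding genes higher). Among the 18 were TTK, a spindle checkpoint kinase (6.47 against 16.9 FPKM), and CKS2 (45.5 against 102). The 18 became 0 with the 2 groups alone or without either STAU1-KO spindle library, 1 with library weights, 9 with the replicate block, 8 and 12 with equal coding sums and upper quartiles, and 5 or 6 without an input library. The count rose to 22 with coding genes only, 20 with voom and 20 of 55 with the filter of FPKM of at least 5. Those called lower were then 4, 4 and 3. Of all genes 2423 of 11671, 2127 of 17217 and 1940 of 9366 were higher under these settings. It also rose without either WT spindle library. Without WT spindle replicate 1 or 2 the median of the 65 was 0.17 and 0.34, against 0.26 with all libraries. Of all 17217 genes 1828 were higher as reported, 1224 with the replicate block and 235 with library weights. With equal coding sums and upper quartiles 1121 and 1404 were. CDK7, the kinase that activates CDK1, was the only 1 of the 65 called for the difference of the changes (1.34, SE 0.13, limma adjusted p = 0.0489). It went from 29.4 to 7.12 FPKM in WT and from 23.8 to 15.7 in STAU1-KO cells. That call held in 8 of 18 alternatives and was lost with the replicate block, with library weights, with no filter, with equal coding sums and without any 1 library other than those of WT spindles. The limma adjusted p ran from 0.00131 to 0.303 and the value from 1.08 to 1.45.

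The authors' deposited table called 6 of the 10 lower and 1 higher in WT spindles, where it called 23.2% of genes with an adjusted p lower and 19.9% higher (43.1% either way). In STAU1-KO cells the authors' deposited table called 5 lower and 1 higher, against 22.5% and 18.6% (41.1% either way). The 1 higher there was CDC25B, with a log2 fold change of 0.43 and an adjusted p of 0.0416 in the authors' deposited table. Between inputs the authors' deposited table called 0 of the 10, against 1.17% of genes (0.51% higher and 0.661% lower). The authors' TPM values for each group, which rescale each group to its own total, gave STAU1-KO input and spindle levels of 335 and 378 for TPX2 and of 76.4 and 85.1 for PLK1. These are higher in spindles where the FPKM means were lower (145 and 111 for TPX2, 33.0 and 24.9 for PLK1). In WT the authors' TPM kept the direction of FPKM for both, at 230 and 131 for TPX2 and 68.7 and 63.5 for PLK1.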

How the data were processed

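Stranded, ribosomal-depleted total RNA was sequenced from 8 libraries in 4 groups. Per the submitters' processing notes, FastQC, TopHat, featureCounts and DESeq2 were used with GRCh37, and versions are not given in the sources used here. Per the file headers, the authors' table holds FPKM per library, TPM per group and GC content in percent. Per the file headers, the authors' comparison tables hold a base mean (a normalised signal), log2 fold changes, a Wald score, p-values and adjusted p-values.

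The tests used limma 3.58.1 in R 4.3.3 on log2(FPKM + 1), which understates changes of low genes. Genes with FPKM of at least 1 in at least 2 libraries entered 1 model of 4 group means over all 8 libraries, with 4 residual and 2.25 prior degrees of freedom. Tests were two-sided and adjusted by Benjamini-Hochberg over all 17217 genes, and called at an adjusted p under 0.05. The design foresaw a count model had raw counts per library been given. Reads were recovered from FPKM and base mean, and 100% lay within 0.01 of a whole number. They gave depths, exact binomial counting intervals (Python 3.11.15, SciPy 1.17.1) and a voom alternative. The script was tested on simulated data with 200 changed genes, of which 158 were recovered, all with the right sign. Besides these, 25 calls were false, a share above the nominal level. The simulation gave all groups the same spread, whereas WT spindle replicates differed most here. The replicates are called biological in the series' design.

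The members, gene lists and tests were chosen with earlier results of these data known. Named genes were all members, up to 3 genes with the smallest p in each role group, and the 5 coding genes with the closest profile. AURKAPS1 is given besides. Alternatives covered pseudocount, filter, scaling, coding genes only, replicate block, library weights, the 2 groups alone, voom and each library left out. Promoter windows came from RefSeq, and no gene coordinates of the files' build are given.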

Additional observations from a re-analysis of the deposited data

How the results depend on the processing

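Each comparison was recomputed under 19 alternatives, and the difference of changes under 18, since fitting only the 2 groups compared cannot give it. Between WT spindle and input 7 members were called, 6 lower and 1 higher. With equal coding sums this became 4 lower and 2 higher, with equal upper quartiles 6 and 2, and with the 2 groups alone 5 and 1. The other alternatives that used all 8 libraries kept 6 and 1, and leaving out 1 library moved the count. Between inputs 0 members were called in all 19. In STAU1-KO cells the count of 5 became 8 with library weights, 9 with the 2 groups alone and 3 to 9 when 1 library was left out. Between spindles the count of 2 became 1 with a pseudocount of 0.1 or 0.5, 1 with no filter, 1 with the replicate block, 5 with a filter of FPKM of at least 5, 5 with coding genes only, 5 with voom, 0 with library weights, 0 with the 2 groups alone and 0 to 9 when 1 library was left out. The difference of changes went from 0 to between 0 and 8 when 1 library was left out. Calls over all 17217 genes moved as well. From input to spindle in STAU1-KO cells 49.2% were called as reported and 65.7% with the 2 groups alone. With library weights 5598 were called higher and 6401 lower. Between spindles 1828 were called higher as reported, 2127 with voom, 1224 with the replicate block and 235 with library weights. Fewer genes entered with the filter of 5 (1940 higher of 9366) and with coding genes only (2423 of 11671). The cause was not tested.

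Deviations of same-numbered libraries were hardly correlated between groups (from -0.05 to 0.02 over tested genes). With 2 libraries a group this cannot show whether same-numbered libraries came from 1 harvest. With the replicate block the counts were 7, 5, 0, 1 and 0 over the 5 comparisons, and NEK2 between spindles was the call lost (1.08, limma adjusted p = 0.0675).

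Signs turned for values that had not passed. From input to spindle in WT, PLK1 became 0.56 with equal coding sums and 0.17 with equal upper quartiles. With 1 library left out PLK1 ran from -1.14 to 0.33 and WEE1 from -0.022 to 0.081. In STAU1-KO cells TPX2 became 0.31 and 0.010 with these scalings and PLK1 0.29 with the first. Between inputs AURKA became 0.093 and 0.039 with these scalings and PLK1 0.0087 with the first. With 1 library left out AURKA ran from -0.082 to 0.081, CCNA2 from -0.049 to 0.067 and CCNB1 from -0.029 to 0.072. Between spindles, with 1 library left out, PLK1 ran from -0.81 to 0.66 and CDC25B from -0.23 to 0.0042. For the difference of changes, WEE1 became -0.081 with equal coding sums, and PLK1 -0.27 and -0.17 with these scalings and -0.024 with voom. With 1 library left out TPX2 ran from -0.13 to 1.77 and PLK1 from -0.72 to 0.74.

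Depth limits NEK2 and CDK1 most, with 55 and 81 reads in their lowest WT spindle library. With 2 libraries a group and WT spindle replicates apart, intervals for TPX2, CCNB1 and PLK1 are wide, and a missed threshold does not show that values were equal.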
